A study of Mus musculus with 12 samples.

Results

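The 10 genes described here were grouped as cyclins and kinases of meiotic division, and include a phosphatase. They are the cyclins *Ccna1*, *Ccna2*, *Ccnb1*, *Ccnb2* and *Ccnb3*, the cyclin-dependent kinases *Cdk1* and *Cdk2*, the phosphatase *Cdc25c*, and the kinases *Plk1* and *Aurka*. They were chosen by name from the 20985 genes of the tables, and each was found. The RNA came from testes of C57BL/6 *Mael*-/- mice aged 3 months, in 12 libraries of 4 groups with 3 libraries each. TOTAL is the testis extract, INPUT is the pool of sucrose gradient fractions 5 to 8 of an extract treated with EDTA, IP is RNA precipitated from INPUT with an Abcam antibody to LINE-1 ORF1p, and BO is RNA held from INPUT by beads that carried no antibody. ORF1p is the RNA-binding protein of the LINE-1 retrotransposon. All 4 groups, the bead control included, carry the *Mael* mutation, so no group shows these mRNAs in testes with *Mael*. The mean normalized count of *Mael* itself was 0.65 in TOTAL, 0.50 in BO and 0 in INPUT and in IP.

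A cyclin-dependent kinase typically works when bound to a cyclin. CDK1 with a B-type cyclin drives entry into the meiotic divisions, and CDK2 is also found at telomeres and crossover sites of spermatocyte chromosomes. CDC25 phosphatases switch these kinases on, Polo-like kinase 1 and Aurora A act on centrosomes and the spindle, and cyclin A1 is the germ cell form that late spermatocytes need to divide. In oocytes, the tails of several of these mRNAs are lengthened in the cytoplasm through U-rich elements near their 3′ ends that CPEB proteins bind.

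To show where such letters occur among the members, TTTTAT was searched on the transcribed strand in the last 100 bases of the longest coding transcript of 9 members (mm10, GENCODE M21), all but *Cdc25c*, which was not searched. It was present in 3 of them, beside 12.9% of 21828 genes searched in the same way. The 30 bases around each match are given with the 6 letters in capitals, all on the minus strand. The matches describe letters only, and no match says only that the letters are not in this window.
*Ccnb3*, chrX:6979702-6979731: tcttgaaattacTTTTATgaaagaagagaa
*Cdk2*, chr10:128698021-128698050: agaaaatatttcTTTTATgattttcttctc
*Aurka*, chr2:172356237-172356266: ttaaaggctattTTTTATgttggagttctg
The match began 68 bases from the transcript end in *Ccnb3*, 95 in *Cdk2* and 59 in *Aurka*.

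For genes, the values are the authors' mean normalized counts per group, in 3 tables of IP with BO, INPUT or TOTAL that were normalized separately. Since the IP mean stands in all 3 tables under different scalings, whole reads in each IP library could be worked out for all 10 members, with a largest misfit of 0.0005 on the deposited scale. IP libraries held between 25249570 and 27937457 reads on genes. They carry no replicate number and are called a, b and c here. In the other groups only the range of possible depths follows, 47180986 to 99099811 gene reads over the BO libraries together, 71196141 to 95998075 for INPUT and 81782745 to 127565430 for TOTAL. Replicate 3 of BO stood apart, with 52.1% of its repeat signal on LSU rRNA, beside 1.93% to 15.9% in the other 11 libraries. BO means of genes could not be given without that library, and its part in the results against BO was not tested. Genes have no value per library in BO, INPUT and TOTAL, and the authors' standard errors were not used. Ratios are therefore given with the range over the IP libraries and an upper limit on the standard error from counting. No test between groups was made. Sources used here do not say whether libraries came from separate animals.

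Cyclin B3 was by far the most abundant of the 10 mRNAs in IP and had their highest ratio to TOTAL. *Ccnb3* (chrX:6979652-7041619, minus strand) encodes a cyclin of early meiotic prophase germ cells. Its mean was 2495 in TOTAL, and the IP libraries of that table stood at 19177, 23930 and 28636. Each IP library was therefore several times above the TOTAL mean. The log2 ratio of IP to TOTAL was 3.26 (2.94 to 3.52 over IP libraries, counting error at most 0.018), a 9.58-fold difference, and 24 of the 14670 genes compared had a higher ratio. Against INPUT, with a mean of 3806, the IP libraries read 19519, 24444 and 27962 and the log2 ratio was 2.66, with 83 of 14404 genes higher. Against BO, with a mean of 3185, they read 14662, 18699 and 21549 and the log2 ratio was 2.52. Of the 13638 genes compared with BO, 799 had a higher ratio. In reads, *Ccnb3* had 19649, 20543 and 22223 in IP libraries a, b and c, and its place at the top held in each of them. It made up 69.5% of the summed IP means of the 10 members and 30.5% of their summed TOTAL means.

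The mRNAs of the B cyclins that partner CDK1 were also higher in IP than in each other group. *Ccnb1* (chr13:100778650-100786570, minus strand) had a TOTAL mean of 511.7 and IP libraries at 1315, 1518 and 1555. Its log2 ratios were 1.52 to TOTAL (1.36 to 1.60), 1.79 to INPUT (1.65 to 1.90) and 1.84 to BO (1.68 to 1.95), with counting errors of at most 0.063. *Ccnb2* (chr9:70407692-70421547, minus strand) had a TOTAL mean of 455.3 and IP libraries at 1341, 1550 and 1627. Its log2 ratio was 1.73 to TOTAL (1.56 to 1.84) and 2.11 to INPUT (1.96 to 2.24). For *Ccnb2* the contrast with bare beads stood out, at a BO mean of 148.8 beside IP libraries of 1025, 1167 and 1272, a log2 ratio of 2.96 (2.79 to 3.10, counting error at most 0.087). The IP libraries held 1.02 to 1.05 *Ccnb2* reads per *Ccnb1* read, and the ratio of their means was 0.89 in TOTAL, 0.82 in INPUT and 0.47 in BO. *Ccnb3* reads were 14.6 to 18.9 times those of *Ccnb1* in the IP libraries, and the ratio of means was 4.88 in TOTAL, 8.93 in INPUT and 10.1 in BO. These ratios are not per length.

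**Figure D1:**
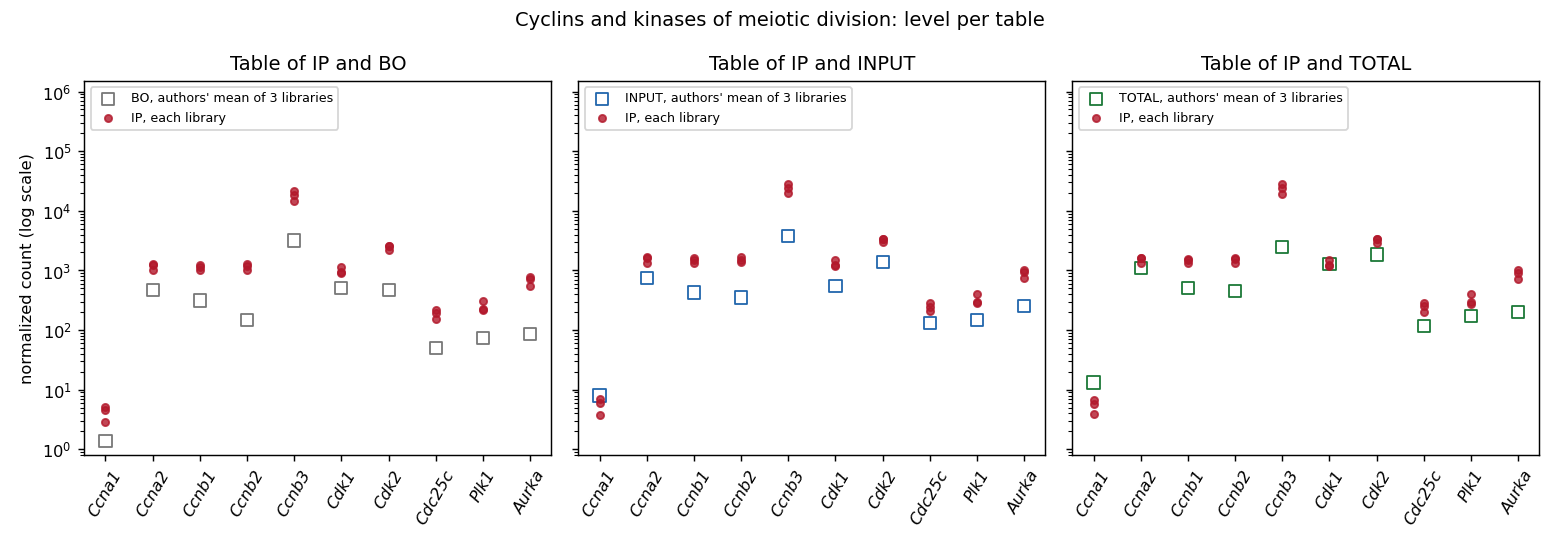
Normalized count (log scale) of each member in the tables of IP with BO, INPUT and TOTAL. Squares are the authors' mean of the 3 other libraries, dots are the 3 IP libraries; the IP libraries lie above the square in every panel for 8 members, while *Cdk1* overlaps TOTAL and *Ccna1* lies below INPUT and TOTAL.

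Of the A cyclins, the germ cell form was near the detection limit and the somatic form was modestly higher in IP. *Ccna1* (chr3:55045469-55055501, minus strand) had means of 13.2 in TOTAL, 8.01 in INPUT and 1.38 in BO, and 7, 5 and 3 reads in IP libraries a, b and c. Each IP library, at 3.9, 5.8 and 6.8 in the TOTAL table, lay below the TOTAL mean. Its log2 ratio to TOTAL was -1.26 with a counting error of up to 0.46, and its ratio to INPUT was -0.53 with an error of up to 0.49. The ratio to BO went the other way, at 1.62 with an error of up to 0.96. Since its mean over both groups was below 10 in every table, it is left out of the counts. *Ccna2* (chr3:36564865-36572150, minus strand), which pairs with CDK2 and CDK1, had a TOTAL mean of 1084 and IP libraries at 1329, 1627 and 1646. These lay above TOTAL by a log2 ratio of 0.50 (0.29 to 0.60). Its log2 ratio was 1.06 to INPUT (0.88 to 1.19) and 1.31 to BO (1.10 to 1.44), so that only 2 of the 3 IP libraries were more than 2-fold above INPUT.

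Of the kinase subunits, *Cdk2* was higher in IP than in each other group, and *Cdk1* was higher than in INPUT and BO. *Cdk1* (chr10:69335146-69352938, minus strand) had a TOTAL mean of 1275, within the IP libraries of 1176, 1246 and 1469, and a log2 ratio of 0.03 (-0.12 to 0.20, counting error at most 0.035). IP did not differ from TOTAL beyond the spread of the IP libraries. Against INPUT, with a mean of 548.6, its IP libraries of 1197, 1217 and 1500 gave a log2 ratio of 1.25. Against BO, with a mean of 514.3, the libraries of 899.2, 937.7 and 1148 gave 0.95, the lowest ratio to BO of the 10 members. This was close to the median gene, at 0.82 against BO. *Cdk2* (chr10:128697939-128705031, minus strand) had a TOTAL mean of 1850 and IP libraries at 2918, 3343 and 3398, a log2 ratio of 0.80 (0.66 to 0.88). It stood far above bare beads, at a BO mean of 472.0 beside IP libraries of 2231, 2557 and 2612, a log2 ratio of 2.39 (2.24 to 2.47), and its ratio to INPUT was 1.23. The ratio of *Cdk2* to *Cdk1* was 2.28 to 2.73 in the IP libraries, 2.52 in INPUT, 1.45 in TOTAL and 0.92 in BO.

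Among the activators and spindle kinases, *Aurka* stood apart. *Aurka* (chr2:172356190-172370535, minus strand) had means of 203.5 in TOTAL, 255.6 in INPUT and 84.7 in BO. The IP libraries of the TOTAL table were at 724.2, 920.3 and 1037, each more than 3-fold above TOTAL, and the log2 ratio was 2.13 (1.83 to 2.35, counting error at most 0.066). Its ratio was 1.81 to INPUT (1.53 to 1.99) and 3.01 to BO (2.71 to 3.20), the highest of the members against BO. *Ccnb2* was close to it at 2.96, and stood above *Aurka* without IP library c (2.95 and 2.91). *Plk1* (chr7:122159439-122169873, plus strand), which acts on many of the same spindle structures, had a TOTAL mean of 172.0 and IP libraries at 278.4, 292.8 and 409.8. All lay above TOTAL, with a log2 ratio of 0.93 (0.70 to 1.25), and the ratios were 1.13 to INPUT and 1.75 to BO. *Cdc25c* (chr18:34732993-34751533, minus strand) had a TOTAL mean of 118.7 and IP libraries at 204.0, 253.8 and 280.7. Its log2 ratio was 1.05 to TOTAL (counting error at most 0.097), 0.91 to INPUT (0.66 to 1.13) and 1.93 to BO (1.66 to 2.15). In the IP libraries *Aurka* had 2.47 to 3.31 reads per *Plk1* read, beside 1.18 in TOTAL, 1.71 in INPUT and 1.14 in BO.

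**Figure D2:**
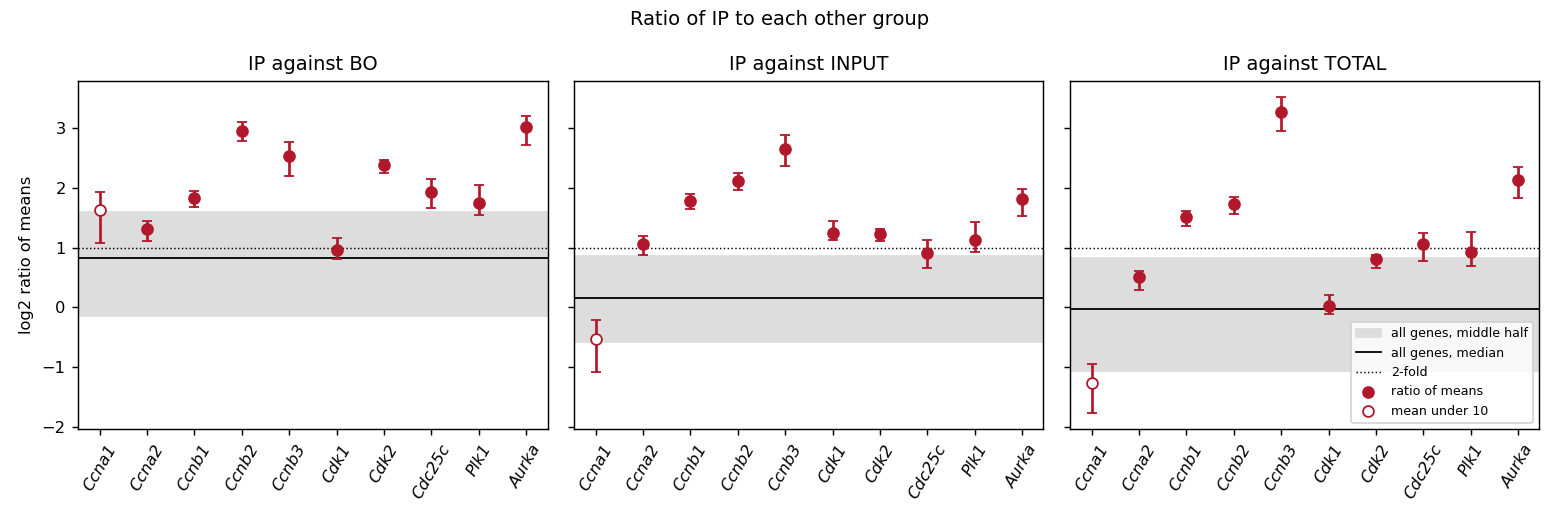
Log2 ratio of the IP mean to the mean of BO, INPUT or TOTAL. Bars span the 3 IP libraries, the grey band runs from the lower to the upper quartile of all genes compared and the line is their median (0.82, 0.15 and -0.03); *Ccnb1*, *Ccnb2*, *Ccnb3*, *Cdc25c*, *Plk1* and *Aurka* lie above the band in each panel, and open circles mark a mean below 10.

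A gene was counted as higher in IP when its IP mean was over 2-fold above the other mean, among genes whose mean over both groups reached 10. The 9 members other than *Ccna1* passed that minimum in each group of each table. Against BO, 8 of 9 members were counted, all but *Cdk1*, beside 44.4% of all genes compared. Against INPUT, 8 of 9 were counted, all but *Cdc25c*, beside 20.7% of genes. Against TOTAL, 5 of 9 were counted, namely *Ccnb1*, *Ccnb2*, *Ccnb3*, *Cdc25c* and *Aurka*, beside 20.6% of genes. In all 3 comparisons, which share the IP libraries, *Ccnb1*, *Ccnb2*, *Ccnb3* and *Aurka* were counted, beside 11.1% of the 13570 genes compared in every table. None of the 9 was lower by more than 2-fold, beside 11.4% of genes against BO, 14.9% against INPUT and 26.5% against TOTAL. *Ccna1*, left out by the minimum, was 2.4-fold lower in IP than in TOTAL, at a mean over both groups of 9.36. The median log2 ratio of the 9 was 1.93 to BO, 1.25 to INPUT and 1.05 to TOTAL, where all genes had 0.82, 0.15 and -0.03. Relative to the median gene, *Cdk1* was at 0.13 against BO, 1.10 against INPUT and 0.05 against TOTAL, and *Ccna2* at 0.49, 0.91 and 0.53. The counts depend on scaling. Against BO, centring on the median gene ended the calls of *Ccna2* and *Plk1* and left 6 members, beside 18.8% of all genes. Against INPUT, 4 members remained 2-fold above it when means were divided by the summed gene means, which lowers every gene alike and left 12% of all genes in place of 20.7%. *Cdc25c*, at 2.07-fold above TOTAL, was no longer counted there with that scaling or with a pseudocount of 10. *Ccnb1*, *Ccnb2*, *Ccnb3* and *Aurka* were over 2-fold higher in all 3 comparisons under each of the 10 alternatives tried. Changing the minimum could not alter their ratios. Against BO, *Ccnb1* only just passed 2-fold when centred on the median gene, at a log2 ratio of 1.01.

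The tables can be joined through the IP mean they share to place INPUT beside TOTAL, and BO beside INPUT. On this scale, *Cdk1* was lower in the gradient fractions than in the extract, at a log2 ratio of INPUT to TOTAL of -1.23, and *Ccna1* was at -0.73. *Ccnb3* at 0.60, *Aurka* at 0.32 and *Cdc25c* at 0.14 were the members with a higher value in INPUT. The other 5 lay between -0.56 and -0.21, where the median of 14284 genes was -0.14. The ratio of BO to INPUT separated the members in another order. *Cdk1* (0.30), *Ccnb3* (0.13) and *Ccnb1* (-0.05) had the highest ratios, *Ccna2* was at -0.25, *Plk1* at -0.62 and *Ccnb2* at -0.85. *Aurka* (-1.20), *Cdk2* (-1.16) and *Cdc25c* (-1.02) were over 2-fold lower on beads, where the median gene was at -0.55. Set on the scale of the median gene, these 3 were at -0.65, -0.61 and -0.47, none of them past 2-fold, and *Cdk1*, *Ccnb3* and *Ccnb1* were at 0.85, 0.69 and 0.50. *Ccna1* was at -2.15, on 3 to 5 BO reads.

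**Figure D3:**
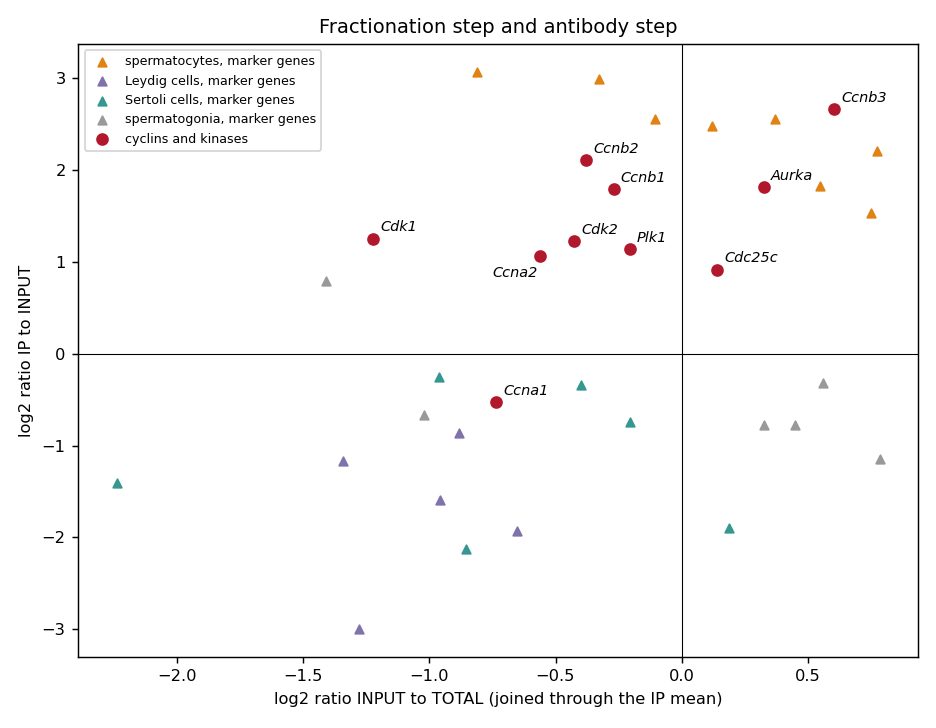
Log2 ratio of INPUT to TOTAL (horizontal, joined through the IP mean) and of IP to INPUT (vertical) for the 10 members and for marker genes of spermatocytes, spermatogonia, Sertoli cells and Leydig cells. *Cdk1* lies at -1.23 and 1.25, *Ccnb3* at 0.60 and 2.66, and *Ccna1* is the only member below 0 on the vertical axis.

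Levels between genes were compared per kb of the longest transcript. In TOTAL, *Cdk2* (566.7 per kb) and *Ccnb3* (548.0) had the highest normalized counts per kb, followed by *Ccna2* (365.6), *Ccnb2* (297.4), *Cdk1* (291.3), *Ccnb1* (205.6), *Aurka* (106.8), *Plk1* (78.2), *Cdc25c* (45.1) and *Ccna1* (7.69). In IP, *Ccnb3* stood first at 5251 per kb (4211 to 6288 over libraries), followed by *Cdk2* at 986.4 and *Ccnb2* at 983.8, whose libraries overlapped. *Ccnb1* (587.6), *Ccna2* (517.4) and *Aurka* (469.2) followed, each overlapping with its neighbour in this order. *Cdk1* at 296.5, *Plk1* at 148.7, *Cdc25c* at 93.5 and *Ccna1* at 3.20 were then separated from each other in all IP libraries. The order rests on the transcript chosen, as the longest *Cdk1* transcript has 4375 nt and its median transcript 695 nt. With median transcripts, *Cdk1* stood first in TOTAL at 1834 per kb and moved from rank 7 to rank 2 in IP at 1866 per kb. The median longest transcript of the members was 2562 nt with a median GC content of 48.3%, beside 3385 nt and 49.7% for the genes compared with TOTAL that matched GENCODE. Exons of *Ccna1*, *Ccna2*, *Cdk2*, *Cdc25c* and *Plk1* overlap a gene on the opposite strand, and the strand setting of the counting is not given in the sources used here.

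Other genes of the division machinery differed by group. For the counts that follow, the shares of all genes over 2-fold higher in IP are 44.4% against BO, 20.7% against INPUT and 20.6% against TOTAL, and 26.5% of genes were over 2-fold lower against TOTAL. Of 19 other cyclins, 7 were over 2-fold higher in IP than in BO, 7 than in INPUT and 5 than in TOTAL, while 2, 1 and 2 were over 2-fold lower. Their median log2 ratios were 0.37 to BO and 0.41 to TOTAL. The replication cyclin *Ccne2* had the highest ratio to TOTAL (2.14) and *Ccnd3*, a cyclin of the first growth phase, the lowest (-1.96). *Ccnk* had the highest ratio to BO (2.38) and *Ccnt2* the lowest (-1.79), both cyclins of transcriptional kinases. Of 17 other cyclin-dependent kinases, 7 were higher than in BO, 1 than in INPUT and 2 than in TOTAL, while 3, 1 and 3 were over 2-fold lower, and the median ratio to TOTAL was -0.19. The transcriptional kinase *Cdk12* was highest against TOTAL (1.08) and *Cdk15* lowest (-1.87), while *Cdk11b* (2.20) and *Cdk6* (-1.16) were the extremes against BO. *Cdk2* and *Cdk1*, at 0.80 and 0.03 against TOTAL, lay inside the range of these other kinases. By their means, both lay above the highest of them against INPUT, at 1.23 and 1.25 (*Cdk8*, 1.05), and *Cdk2* at 2.39 lay above the highest against BO (*Cdk11b*). These orders did not hold in each IP library, as *Cdk11b* varied widely. Its IP libraries ran from 537.3 to 1021 beside a BO mean of 162.9, and from 715.2 to 1325 beside an INPUT mean of 535.6.

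Regulators of CDK1 and CDK2 were counted at shares near those of all genes against BO and TOTAL. Of 14 above the minimum, 6 were over 2-fold higher in IP than in BO, 5 than in INPUT and 4 than in TOTAL, and 3 were over 2-fold lower than in TOTAL. *Spdya*, whose product Speedy A activates CDK2 at telomeres, had the highest ratio to TOTAL at 2.71, with means of 617.9 in TOTAL and 4038 in IP. *Cdkn1b*, which encodes the CDK inhibitor p27, had the lowest ratio to both, at -2.33 against TOTAL and -1.94 against BO. *Pkmyt1*, a kinase that inhibits CDK1, had the highest ratio to BO (3.35) at a BO mean of only 3.07, and a ratio to TOTAL of 0.04. It passed the minimum through IP alone, and without it 5 of 13 were counted against BO.

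Genes of the spindle and of its checkpoint were counted in each comparison in turn. Of 10 other Polo and Aurora kinases and partners above the minimum, 9 were over 2-fold higher in IP than in BO, 6 than in INPUT and 7 than in TOTAL, and none was over 2-fold lower. *Nek2*, a centrosome kinase, was highest against TOTAL (2.65) and *Aurkb*, the Aurora kinase of centromeres, lowest (-0.34). Against BO, *Cdca8*, a partner of Aurora B, was highest (2.80) and the centriole kinase *Plk4* lowest (0.68). *Aurka* at 2.13 and *Aurkb* at -0.34 against TOTAL thus lay near opposite ends. Of 10 spindle checkpoint genes, 10 were higher than in BO, 7 than in INPUT and 7 than in TOTAL, with a median ratio to TOTAL of 1.77. *Bub1*, the checkpoint kinase of kinetochores, had the highest ratios (2.95 to BO and 2.74 to TOTAL) and an IP mean of 24178 in the TOTAL table, close to that of *Ccnb3* at 23914. *Mad2l1bp*, whose product silences the checkpoint, had the lowest, at 2.35-fold above BO and a log2 ratio of -0.39 to TOTAL. Of 19 genes of the anaphase-promoting complex and its partners, the ligase that marks B cyclins for destruction, 14 were higher than in BO, 5 than in INPUT and 4 than in TOTAL, and 4 were over 2-fold lower than in TOTAL. The counts against INPUT and TOTAL were near the shares of all genes, and *Anapc13* passed the minimum against BO through IP alone (13 of 18 without it). The inhibitor *Fbxo43* was highest against TOTAL (2.16), and the small subunit *Anapc13* lowest (-2.58). *Anapc16* (2.95) and *Pttg1*, the securin gene (0.14), were the extremes against BO.

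**Figure D4:**
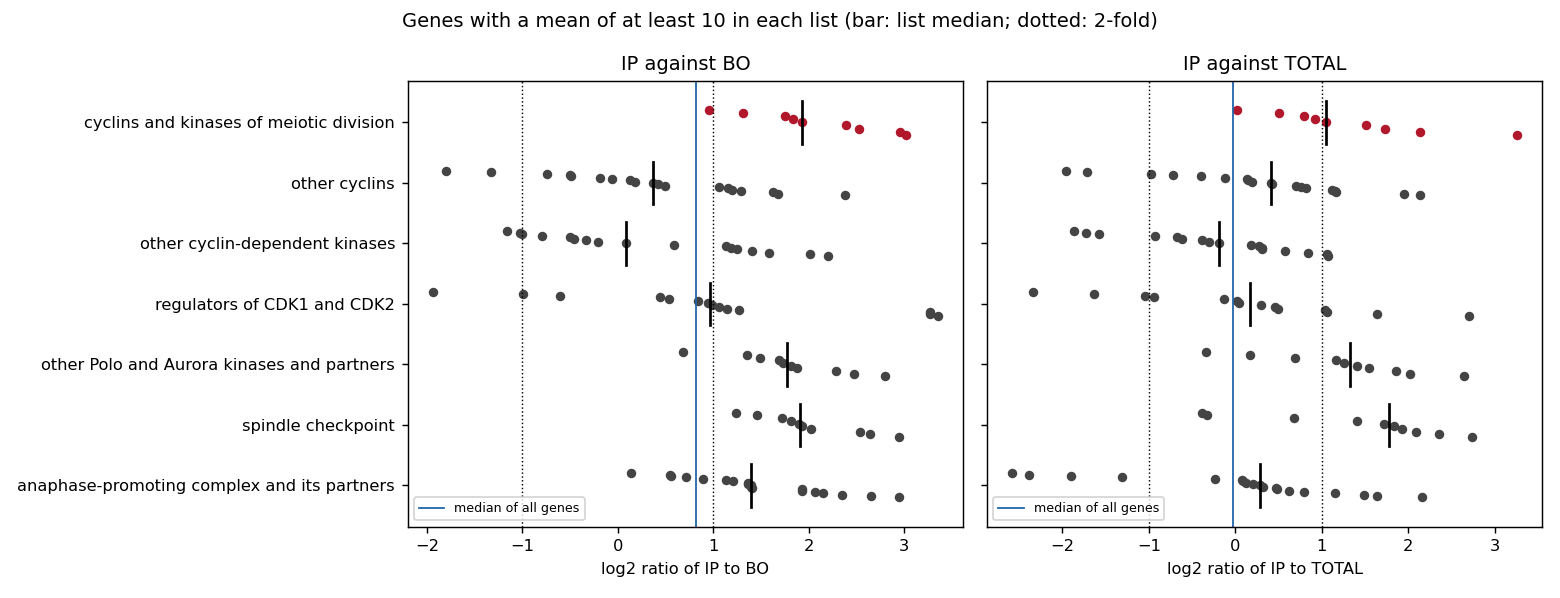
Log2 ratio of IP to BO and to TOTAL for genes whose mean reached 10, the 9 members in red and 6 lists of related genes below. Black bars are list medians and the blue line the median of all genes; the members' medians are 1.93 and 1.05, and spindle checkpoint genes have 1.91 and 1.77.

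Marker genes of the testis cell types also differed between groups. Each of 8 spermatocyte genes was over 2-fold higher in IP than in BO, INPUT and TOTAL, with log2 ratios to TOTAL of 2.25 to 2.98 and a summed mean of 28066 in TOTAL and 169040 in IP. Of the members, *Ccnb3* alone exceeded that range against TOTAL. The other 9 were below it, *Aurka* nearest at 2.13. Against INPUT the spermatocyte genes ran from 1.53 to 3.06. *Ccnb3* (2.66), *Ccnb2* (2.11), *Aurka* (1.81) and *Ccnb1* (1.79) lay inside that range and the other members below it. Against BO they ran from 2.02 to 3.94, with *Aurka* (3.01), *Ccnb2* (2.96), *Ccnb3* (2.52) and *Cdk2* (2.39) inside and the other members below. Of 6 spermatogonia genes, none was over 2-fold higher than in TOTAL and the summed mean was 6378 in TOTAL and 3864 in IP. Summed means of 6 Sertoli genes (34167 and 9526) and of 5 Leydig genes (77573 and 15226) were lower in IP, and of 5 macrophage and blood genes the 2 found in the tables had log2 ratios of -0.96 (*Csf1r*) and -2.92 (*Cd68*) to TOTAL. Against BO the summed Leydig mean was instead higher in IP (5666 and 11645), as was *Csf1r* (1.15). *Cd68* was at 1.45, but its BO mean was only 6.67, and it passed the minimum through IP alone. Of 6 spermatid genes, *Spaca1* had means of 230.9 in TOTAL and 232.6 in IP, and log2 ratios of 1.49 to INPUT and 2.12 to BO. The other 5 were nearly absent, with *Prm1*, *Prm2*, *Tnp1*, *Tnp2* and *Acrv1* at means of 11.7 to 39.3 in TOTAL and below 1 in IP. TOTAL is whole testis, so fewer cells of a type and less RNA per cell cannot be told apart, and the part of cell type in the members' ratios was not tested.

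Over the 13570 genes compared in all tables, those nearest in their 3 log2 ratios to the mean of the 10 members (2.03, 1.34 and 1.07 to BO, INPUT and TOTAL) were *Stradb*, *Ctps* and *Cep63*. *Stradb* was at a Euclidean distance of 0.076 on the log2 scale, *Ctps* at 0.086 and *Cep63* at 0.096. That mean includes *Ccna1*, with 15 IP reads. Around the mean of the other 9 members (2.07, 1.55 and 1.33), *Glt8d1*, *Gm7102* and *Golga5* were nearest instead. The members themselves spread from -1.26 to 3.26 against TOTAL.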

How the data were processed

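Groups were taken from the sample labels. Per the submitters' processing notes, reads were mapped to mm10 with STAR 2.6.0c and normalized with DESeq2 1.24.0. The annotation used for counting is not given in the sources used here. The deposited signal for genes is the authors' mean normalized count per group. The same tables hold fold changes, standard errors and p-values of the authors' comparisons, which were not used. A repeat table with a normalized count signal per library served only for the rRNA share.

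Reads per IP library were solved from the IP means of the 3 tables, and 99.979% of genes with an IP mean above 0 came out whole within a misfit of 0.001. The steps were tested on simulated counts. Ratios are log2 ratios of deposited means without a pseudocount, computed with Python 3 and pandas. Since genes have no value per library in BO, INPUT and TOTAL, the test across genes that was foreseen could not be run. Apart from *Mael* and the genes given in the next sentence, genes named outside the members were the highest and lowest of each list against BO and TOTAL and the 3 nearest genes. *Cdk8*, the genes nearest without *Ccna1* and the single marker genes were chosen after their values were seen. Members and lists were chosen with earlier results of these data known. Alternatives were pseudocounts of 1 and 10, centring on the median gene, scaling to summed gene means or their upper quartile, no minimum, a mean of at least 100, another transcript length, and each IP library left out, of which the last and the longest coding transcript were added after the data were seen, as were the nearest genes without *Ccna1* and a minimum in the other group for the lists. Locations, lengths and sequences are from mm10 and GENCODE M21.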

Additional observations from a re-analysis of the deposited data

How the results depend on the processing

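Scaling moved the counts against INPUT, where 4 members were over 2-fold higher in IP when means were divided by the summed gene means and 4 when divided by their upper quartile, in place of 8. The share of all genes was 12% and 11.4%, in place of 20.7%. These scalings lowered each log2 ratio to INPUT by a constant (-0.37 and -0.41). Centring on the median gene shifted each ratio to BO by -0.82 and left 6 members counted there, beside 18.8% of genes. Leaving out each IP library in turn gave 8 to 9 members against BO, 7 to 9 against INPUT and 5 to 6 against TOTAL. Of the members, *Cdk1* passed 2-fold against BO without library a, *Cdc25c* passed it against INPUT without library a and missed it against TOTAL without library b, *Plk1* missed it against INPUT without library c and passed it against TOTAL without library a or b, and *Ccna2* missed it against INPUT without library b. With means set on a common scale through the median gene, the members' median log2 ratio of BO to INPUT was -0.18 in place of -0.73, and that of INPUT to TOTAL was -0.18 in place of -0.33. On that scale no member other than *Ccna1* was over 2-fold lower on beads than in INPUT. With the median transcript, 3 of 10 members kept their rank per kb in TOTAL. No paired analysis was possible because genes are deposited as group means and the IP libraries worked out here carry no replicate number. Depth limits *Ccna1*, with 15 reads over the IP libraries.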
